A study of Mus musculus with 6 samples.

Results

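A set of 10 genes that the transcription factor NRF2 is known to drive were followed in mouse liver RNA-seq. Values are given by name for 9 of them: Nqo1, Gclc, Gclm, Hmox1, Srxn1, Txnrd1, Osgin1, Ephx1 and Ugdh. Counts and medians cover all 10. They were chosen as a named list, by symbol, and all 10 of 10 were found among 54600 genes of the deposited table, each in 1 row, and all 10 passed the filter on low values. The livers were taken after 16 weeks of high-fat diet, in 3 libraries labelled hepatocyte-specific HIF-2alpha knockout (KO) and 3 labelled wild type (WT). The diet is shared by both groups, and no group on another diet is compared here. The strain, sex and age of the mice, and the Cre driver behind the deletion, are not stated in the labels. Libraries carry the numbers 1 to 3 under each label, with no statement that each is a separate animal, so p-values cover only the spread among these 6 libraries, which may be technical.

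NRF2, encoded by Nfe2l2, is held in the cytosol by KEAP1, which presents it to a CUL3 ubiquitin ligase for destruction. Oxidants and electrophiles modify KEAP1, and the NRF2 that then accumulates pairs with small MAF proteins on antioxidant response elements near its target genes. In liver this programme supplies glutathione, reduced thioredoxin, NADPH and detoxifying enzymes. Epas1 encodes HIF-2α, a transcription factor subunit that is degraded when oxygen is plentiful, and the comparison addresses how the liver on this diet differed with the HIF-2α genotype label.

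Levels are in TPM, which divides by transcript length and fixes each library's sum, so sequencing depth is unknown. Each library had 11013 to 11708 genes at 1 TPM or more. Epas1, the gene named in the knockout label, was at 26.6, 35.1 and 29.4 TPM in KO libraries 1 to 3, against 23.8, 26.0 and 21.0 TPM in WT libraries 1 to 3, with all KO values above all WT values. It was thus not lower under the KO label, and it goes against that label, although other liver cells keep Epas1 and a whole-gene value need not show a partial deletion. For this reason every direction given here is between libraries labelled KO and libraries labelled WT. Defining hepatocyte genes were abundant, with albumin (Alb) between 28784 and 48972 TPM. Of a list of 8 muscle, pancreas and fat genes, Myh1, Ckm, Prss2, Cpa1 and Adipoq were listed at 0 in all 6 libraries. The list as a whole was not at 0. It summed to 54.48 to 81.55 TPM in KO libraries and 58.87 to 89.55 TPM in WT libraries, and 1 of the 8 genes was tested. Of the hepatocyte list, 9 of 10 symbols matched a row. Across the transcriptome, 1 of 11440 tested genes passed the threshold used here, a limma Benjamini-Hochberg adjusted p below 0.05, which is 0.00874% of those tested, and it was not 1 of these 10.

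None of the 10 NRF2 target genes differed between the labels beyond the spread of the libraries. All 10 had overlapping groups, 0 of 10 passed the adjusted threshold, and 0 of 10 had an unadjusted limma p below 0.05, where 3.15% of all tested genes did (2.76% higher and 0.385% lower in KO) and 9.08% had groups that did not overlap (8.23% higher and 0.857% lower in KO). A fit that blocked on library number again had 0 of 10 at an unadjusted limma p below 0.05. The difference KO minus WT on the log2(TPM + 1) scale was above 0 for 5 genes and below 0 for 5, from -0.31 for Ugdh to +0.27 for Osgin1, with a median of 0.00040. The median over all tested genes was +0.09, and 74.5% of them were above 0 and 25.5% below, so 7 of the 10 lay below that median. Median-ratio scaling, which divides each library by its typical ratio to the others, moved the all-gene median to -0.0016 and the median of the 10 to -0.11.

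**Figure D1:**
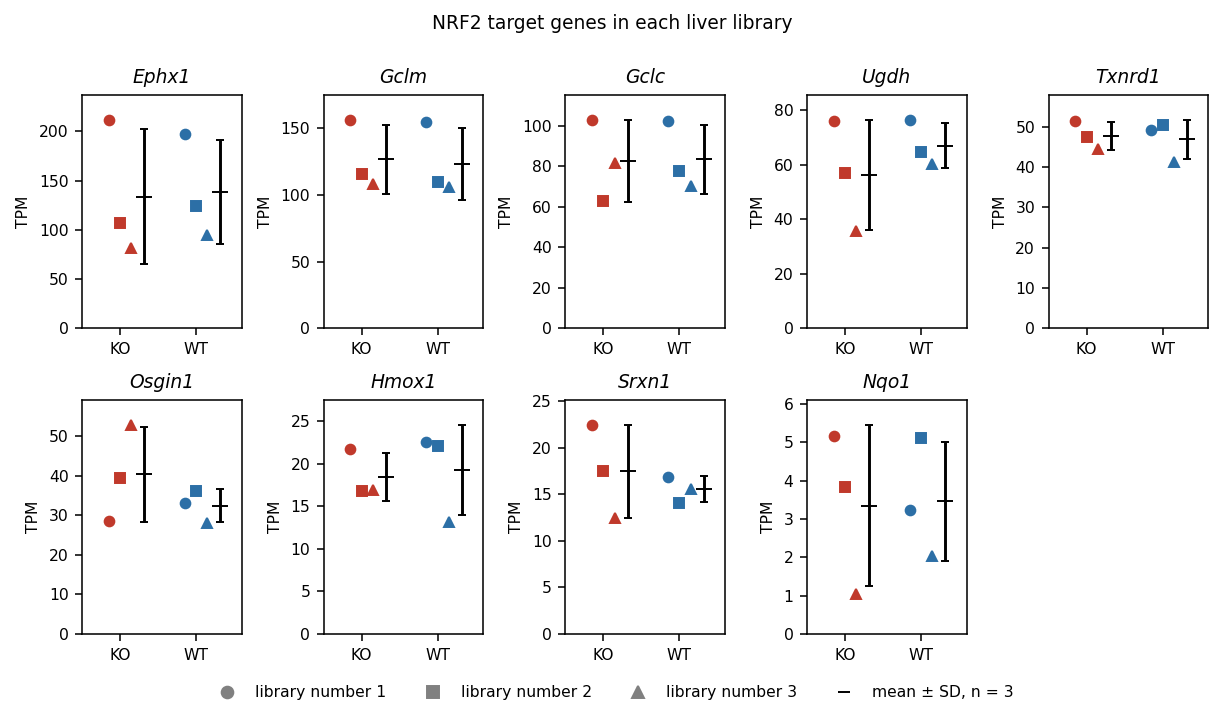
TPM of 9 NRF2 target genes (vertical axes, each from 0) in the libraries labelled KO (left, red) and WT (right, blue), with the mean and SD of 3 libraries beside the points and the library number as the symbol. The groups overlap for all 9 genes shown, and the library numbered 1 is the highest of its group in both labels for 6 of them, beside 21.2% of all tested genes.

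The genes spanned a wide range of abundance, and their order was much the same in each library. Ephx1 and Gclm were the most abundant, averaging 136 and 125 TPM over the 6 libraries. They were followed by Gclc at 82.9, Ugdh at 61.6, Txnrd1 at 47.3, Osgin1 at 36.4, Hmox1 at 18.9 and Srxn1 at 16.5 TPM. Nqo1 was far lower, at 3.41 TPM, so its log2(TPM + 1) difference understates changes in TPM. The ranges of Gclm and Gclc did not overlap, nor did those of Osgin1 and Hmox1 or of Srxn1 and Nqo1. Other neighbours in this order overlapped, and the order of Ephx1 and Gclm, and likewise of Hmox1 and Srxn1, held in only 3 of 6 libraries.

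Glutathione synthesis starts with glutamate-cysteine ligase, made of the catalytic subunit GCLC and the modifier subunit GCLM, which raises its affinity for substrate. Gclm (mm10, plus strand of chromosome 3, 122245557 to 122270732) was at 156, 115 and 108 TPM in KO libraries 1 to 3, against 155, 110 and 106 TPM in WT libraries 1 to 3. The library numbered 1 stood above the other 2 in each label, and the groups overlapped. The means were 126.7 ± 26.00 TPM in KO and 123.5 ± 27.03 TPM in WT (SD, n = 3 each), a difference of +0.04 with a standard error of 0.20 on the log2(TPM + 1) scale (limma adjusted p = 0.993). Between libraries of the same number the difference was +0.02, +0.07 and +0.03.

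Gclc (plus strand of chromosome 9, 77754535 to 77794485) was at 103, 62.7 and 81.6 TPM in KO libraries, against 103, 77.5 and 70.2 TPM in WT libraries. Its highest value was again in the library numbered 1 of each label, and the groups overlapped. The difference was -0.03 with a standard error of 0.22 (limma adjusted p = 0.994). The ratio of Gclm to Gclc TPM was 1.52, 1.84 and 1.33 in KO libraries, against 1.51, 1.42 and 1.51 in WT libraries. The KO ratios lay on either side of all WT ratios.

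Ephx1 encodes microsomal epoxide hydrolase, which opens reactive epoxides to diols, and Ugdh encodes UDP-glucose dehydrogenase, which makes the UDP-glucuronic acid used in glucuronidation. Ephx1 (minus strand of chromosome 1, 180976210 to 181020904) was at 212, 107 and 81.9 TPM in KO libraries, against 197, 124 and 94.4 TPM in WT libraries. The 2 libraries numbered 1 were the highest of all 6, and the lowest and highest libraries differed 2.58-fold, while the labels differed by -0.10 with a standard error of 0.39 (limma adjusted p = 0.993). The spread within a label was 134 ± 68.8 TPM in KO and 138 ± 52.9 TPM in WT (SD, n = 3 each).

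Ugdh (minus strand of chromosome 5, 65413221 to 65435949) was at 76.1, 56.9 and 35.6 TPM in KO libraries, against 76.3, 64.5 and 60.1 TPM in WT libraries. KO library 3 was the lowest of the 6, while libraries numbered 1 were nearly equal. The means were 56.2 ± 20.3 TPM in KO and 67.0 ± 8.36 TPM in WT (SD, n = 3 each), the most negative difference of the 10, at -0.31 with a standard error of 0.26 (limma adjusted p = 0.993). By library number it was -0.003, -0.18 and -0.74. Without KO replicate 3 it was -0.02, and without KO replicate 1 it was -0.55, with an unadjusted limma p below 0.05 and a limma adjusted p of 0.998. Ugdh was the only member below 0 under all 22 alternatives run.

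Promoter windows of Gclm, Ugdh and Ephx1 are shown because these genes were among the 6 that were highest in the library numbered 1 of each label, the others being Gclc, Hmox1 and Srxn1. Of all tested genes, 21.2% were highest there in each label. The windows run from 250 bases before to 50 after a RefSeq start site on GRCm38.p6, 5′ to 3′ on the gene's strand, and capitals mark the core letters of the antioxidant response element, TGACNNNGC on either strand.
Gclm, chr3:122245307-122245606, plus strand: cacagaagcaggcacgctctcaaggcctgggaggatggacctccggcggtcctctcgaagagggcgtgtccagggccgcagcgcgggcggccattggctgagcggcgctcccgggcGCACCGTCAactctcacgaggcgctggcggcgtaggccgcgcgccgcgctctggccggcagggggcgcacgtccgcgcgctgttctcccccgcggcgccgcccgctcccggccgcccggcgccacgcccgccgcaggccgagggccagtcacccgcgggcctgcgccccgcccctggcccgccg
Ugdh, chr5:65435793-65436092, minus strand: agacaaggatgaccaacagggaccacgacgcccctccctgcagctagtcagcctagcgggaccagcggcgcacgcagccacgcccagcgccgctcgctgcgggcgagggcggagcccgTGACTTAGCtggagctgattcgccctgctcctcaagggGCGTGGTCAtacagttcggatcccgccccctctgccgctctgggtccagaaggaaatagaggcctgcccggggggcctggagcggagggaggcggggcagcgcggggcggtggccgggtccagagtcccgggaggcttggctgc
Ephx1, chr1:181017520-181017819, minus strand: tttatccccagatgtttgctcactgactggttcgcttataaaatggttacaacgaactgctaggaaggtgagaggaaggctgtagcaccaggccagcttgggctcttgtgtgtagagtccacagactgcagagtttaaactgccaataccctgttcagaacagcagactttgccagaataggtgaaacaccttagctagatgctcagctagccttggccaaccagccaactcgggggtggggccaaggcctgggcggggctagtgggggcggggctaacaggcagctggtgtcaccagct
The Ugdh window held the core letters on each strand, with their leftmost bases at positions -132 and -94 from the start site, the Gclm window held them once at -134, and the Ephx1 window did not hold them. RefSeq windows were matched for 8 of the 10 genes, not for Gclc and Hmox1, and 5 of those 8 held the core letters in at least 1 window, among them Gclm, Ugdh, Srxn1 and Txnrd1. The Nqo1 and Osgin1 windows did not. Counted by window, 5 of 10 windows of these genes held them, and 12.4% of all 32851 windows did. The hypoxia response element core, ACGTG on either strand, was in 2 of the 10 windows, that of Gclm among them, and in 19.6% of all windows. The 2 motifs did not overlap there, and such matches describe letters, not binding.

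The thioredoxin branch is represented by Txnrd1, the cytosolic thioredoxin reductase, and Srxn1, the sulfiredoxin that repairs over-oxidised peroxiredoxins. Txnrd1 (plus strand of chromosome 10, 82833951 to 82897712) was the steadiest of the 10. It was at 51.4, 47.5 and 44.4 TPM in KO libraries, against 49.1, 50.3 and 41.4 TPM in WT libraries, so the groups overlapped, with KO library 1 the highest and WT library 3 the lowest of the 6. The difference was +0.03 with a 95% limma interval from -0.27 to +0.33. Srxn1 (plus strand of chromosome 2, 152105516 to 152111376) was at 22.4, 17.5 and 12.5 TPM in KO libraries, against 16.9, 14.1 and 15.6 TPM in WT libraries. KO held both the highest and the lowest value, and the difference was +0.13 with an interval from -0.36 to +0.61.

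Nqo1 encodes the quinone reductase that is often used as a readout of NRF2 activity. Nqo1 (minus strand of chromosome 8, 107388225 to 107403206) was at 5.18, 3.83 and 1.05 TPM in KO libraries, against 3.24, 5.11 and 2.04 TPM in WT libraries. The lowest and highest libraries, KO 3 and KO 1, carry the same label and differed 4.94-fold, the widest range of the 10. The means were 3.35 ± 2.11 TPM in KO and 3.46 ± 1.55 TPM in WT (SD, n = 3 each). The interval of the difference, from -1.14 to +0.89, holds differences of either sign.

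Hmox1 encodes haem oxygenase 1, which breaks haem down to biliverdin, iron and carbon monoxide and is expressed by hepatocytes and strongly by Kupffer cells, the resident macrophages of the liver. Hmox1 (plus strand of chromosome 8, 75093621 to 75100589) was at 21.7, 16.8 and 16.9 TPM in KO libraries, against 22.6, 22.1 and 13.2 TPM in WT libraries. WT library 3 was the lowest and the labels overlapped, with a difference of -0.03 and an interval from -0.55 to +0.49 (limma adjusted p = 0.994). The summed TPM of 11 Kupffer cell markers ran from 360 to 379 in KO libraries and from 276 to 398 in WT libraries, and was also lowest in WT library 3. Of those markers 11 of 11 were tested, none was at 0, and their part in the Hmox1 values was not tested. In bulk liver, fewer cells of a type and less RNA per cell cannot be told apart.

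Osgin1, an oxidative stress-induced growth inhibitor, had the most positive difference of the 10. Osgin1 (plus strand of chromosome 8, 119434124 to 119446256) was at 28.7, 39.5 and 52.9 TPM in KO libraries, against 33.1, 36.2 and 28.0 TPM in WT libraries. KO library 3 was the highest of the 6, and KO library 1 lay within the WT range. The means were 40.4 ± 12.1 TPM in KO and 32.4 ± 4.12 TPM in WT (SD, n = 3 each), a difference of +0.27 with an interval from -0.25 to +0.80. Without KO replicate 3 it was +0.06, and without both libraries numbered 3 it was -0.04. Without KO replicate 1 it was +0.49, with an unadjusted limma p below 0.05 and a limma adjusted p of 0.998. Without both libraries numbered 1 it was +0.51. In the same KO library 3, Ugdh, Nqo1, Srxn1 and Ephx1 each had their lowest value of the 6 libraries.

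**Figure D2:**
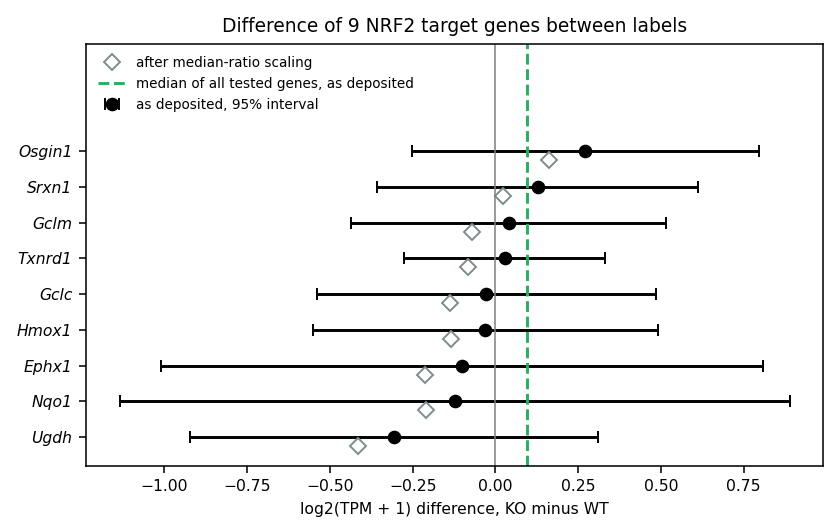
Difference between libraries labelled KO and WT on the log2(TPM + 1) scale for 9 NRF2 target genes (points, KO minus WT) with its 95% limma interval (bars), the value after median-ratio scaling (diamonds) and the median of all tested genes (dashed line, +0.09). Every interval includes 0, and the points run from -0.31 for Ugdh to +0.27 for Osgin1.

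An exact two-sided permutation test over libraries gave p between 0.40 and 1.0 for the 10 genes, where 3 libraries against 3 cannot go below 0.10. The narrowest limma interval was that of Txnrd1 and the widest that of Nqo1. An interval that includes 0 does not show that the labels act alike.

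The variation of the NRF2 targets followed the library number more than the label. Splitting the squared deviations of log2(TPM + 1) into number, label and remainder put a median of 75.4% of the variation of the 10 genes with the number and 1.44% with the label, against medians of 53.5% and 11.7% over all tested genes. The number takes 2 of the 5 degrees of freedom and the label 1, and the split was chosen after the values were seen and has no test. The share with the number was above 50% for 9 of the 10, and 53.4% of all tested genes also had such a share. It was 99.1% for Gclm and 97.0% for Ephx1, and 22.3% for Osgin1. The labels do not say what the number stands for.

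This pattern depended on the scaling. After median-ratio scaling the median share of the 10 genes fell to 46.2%, below the all-gene median of 51.2%, and quantile normalization gave 47.9% and 51.4%. Only 4 genes then kept a share above 50% under median-ratio scaling: Gclm (95.5%), Ephx1 (90.3%), Gclc (73.9%) and Nqo1 (72.8%). Txnrd1 moved from 84.4% to 9.46%. The median-ratio factors were 1.06, 1.08 and 0.980 for KO libraries 1 to 3, against 1.04, 0.982 and 0.879 for WT libraries 1 to 3, so the library numbered 3 had the lowest factor of each label. From 41.2% to 46.9% of a library's TPM lay in its 20 most abundant genes. Leaving out both libraries of a number left the share at 50.7%, 80.4% and 64.7% without numbers 1, 2 and 3, against 40.3%, 42.3% and 35.2% over all tested genes.

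**Figure D3:**
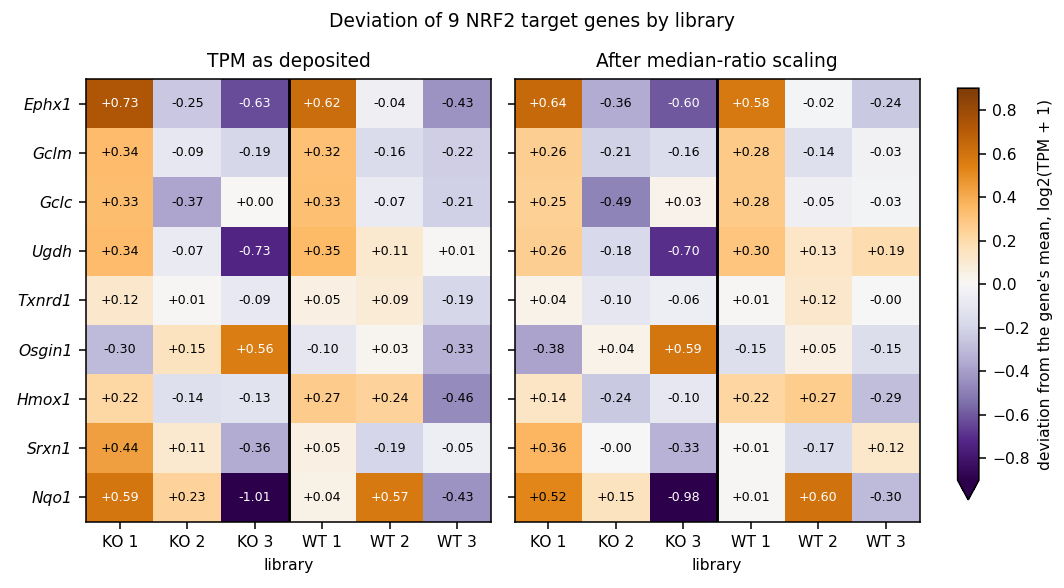
Deviation of 9 NRF2 target genes, each from its own mean over the 6 libraries, on the log2(TPM + 1) scale, as deposited (left) and after median-ratio scaling (right), with KO libraries left of WT libraries and orange above the mean. Ephx1, Gclm and Gclc are highest in KO 1 and WT 1 on both scales, whereas Osgin1 is highest in KO 3, where Ugdh and Nqo1 are lowest.

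In the TPM as deposited, most of the 10 genes varied together over the 6 libraries. The median Pearson correlation over the 45 pairs was 0.53, and 53.3% of pairs were above 0.5, while all pairs of tested genes had a median of 0.21 with 27.8% above 0.5. These are descriptions over 6 libraries that share 3 numbers and the scaling above. The correlations were not computed after median-ratio scaling, where the shared pattern by number was weaker. The closest pair was Gclm and Ephx1, at 0.95, followed by Hmox1 and Txnrd1 at 0.93. Osgin1 went the other way from Ugdh (-0.85), Srxn1 (-0.68), Ephx1 (-0.57) and Nqo1 (-0.54). Gclc and Gclm, which encode subunits of the same enzyme, were at 0.84.

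Of the named tested genes outside the list, those whose profile over the 6 libraries was most like the mean profile of the 10 were Hsd17b4, Lhx6, Rad51b, B2m, Raet1d and Ugt1a6b, with Pearson correlations between 0.993 and 0.996. Hsd17b4 encodes a peroxisomal beta-oxidation enzyme and B2m the light chain of MHC class I. In all, 444 genes exceeded 0.9, so these 6 are the top of a long list. Nfe2l2 itself was at 0.86 with that profile, Keap1 at 0.90 and Epas1 at 0.11. The profiles most like Nqo1 were those of Dnajc19, Fh1 and Tango2, at 0.992 to 0.996, and those most like Hmox1 were Cd59a, Zfp946 and Hsdl2, at 0.987 to 0.989.

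The regulators of NRF2 were measured in all 15 of 15 cases, and 0 of 15 passed the adjusted threshold. Nfe2l2 was at 32.03, 31.5 and 19.2 TPM in KO libraries, against 37.0, 24.9 and 19.6 TPM in WT libraries, with a difference of +0.03 and a standard error of 0.28. Keap1 was at 14.6, 13.6 and 12.7 TPM in KO libraries, against 16.2, 13.3 and 11.7 TPM in WT libraries, with a difference of -0.01 and a standard error of 0.15. For both genes the library numbered 1 was the highest and the library numbered 3 the lowest in each label. Of all tested genes, 21.2% had number 1 highest and 35.2% had number 3 lowest in both labels. Cul3 and Sqstm1, the autophagy receptor p62 that binds KEAP1, also had overlapping groups.

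Of the 15 regulators, 5 had an unadjusted limma p below 0.05, 4 above 0 and 1 below 0, and 6 had groups that did not overlap, beside 3.15% and 9.08% of all tested genes. Mafg, a small MAF partner of NRF2, was at 14.5, 15.4 and 15.1 TPM in KO libraries, against 11.2, 11.9 and 11.7 TPM in WT libraries. All 3 KO values lay above all WT values, with a difference of +0.34 (standard error 0.11). Before adjustment the limma p was 0.015, and after it 0.993. Bach1, a repressor that competes for the same elements, was at 7.32, 8.52 and 14.8 TPM in KO libraries, against 6.14, 6.51 and 6.12 TPM in WT libraries, and KO library 3 stood above the rest. Nfe2l1, a relative of NRF2 that drives proteasome genes, was at 31.4, 31.8 and 26.3 TPM in KO libraries, against 42.3, 39.2 and 43.6 TPM in WT libraries. Its groups did not overlap either, and its difference was -0.47 (standard error 0.13). By limma, p was 0.0064 before adjustment and 0.993 after it.

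Ep300, encoding a histone acetyltransferase that acts as a co-activator, was at 5.58, 6.65 and 5.79 TPM in KO libraries, against 4.46, 4.12 and 4.77 TPM in WT libraries. Rbx1, the RING subunit of CUL3 ligases, was at 38.8, 31.1 and 29.3 TPM in KO libraries, against 26.8, 22.8 and 25.3 TPM in WT libraries. None of these 5 passed after adjustment over all genes. Median-ratio scaling brought the differences of Mafg, Bach1, Ep300 and Rbx1 to +0.24, +0.47, +0.27 and +0.28, and that of Nfe2l1 to -0.58. At an unadjusted limma p below 0.05, 1 of the 15, Nfe2l1, was left after scaling and Mafg, Bach1, Ep300 and Rbx1 were not, where 2.57% of all tested genes were below 0.05. In the fit that blocked on library number, without scaling, the same 5 of 15 were below 0.05, where 6.18% of all tested genes were. None of them passed after adjustment there (limma adjusted p = 0.724). The median of the 15 was +0.13 as deposited and +0.02 after scaling.

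**Figure D4:**
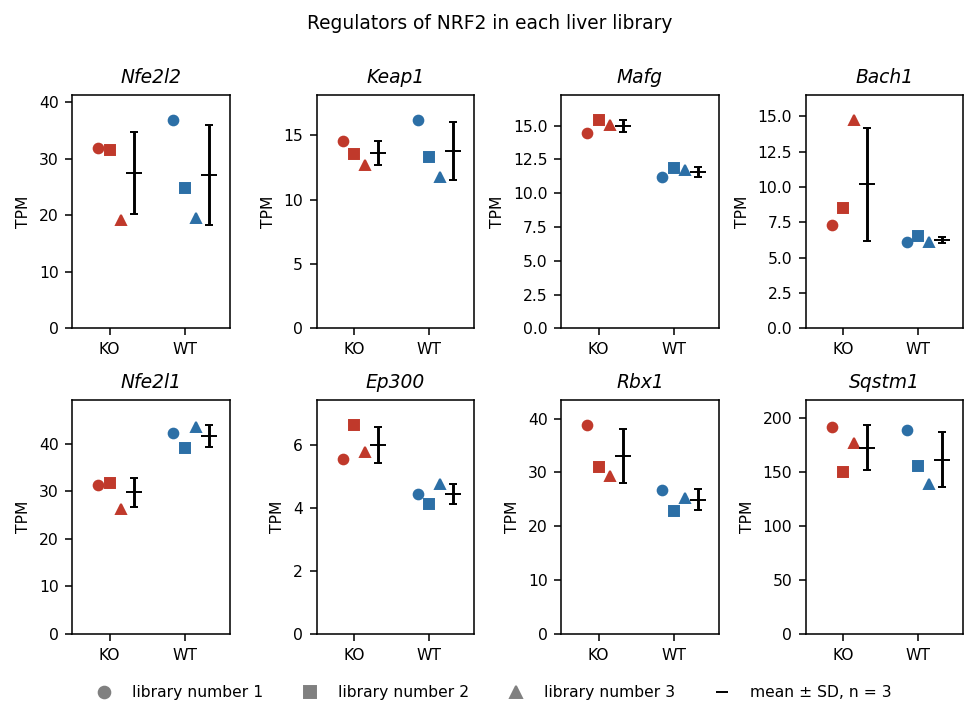
TPM of 8 regulators of NRF2 (vertical axes, each from 0) in the libraries labelled KO (left, red) and WT (right, blue), with means and SD of 3 libraries. Nfe2l2, Keap1 and Sqstm1 overlap between labels, while Mafg, Bach1, Ep300 and Rbx1 lie higher and Nfe2l1 lower in all 3 KO libraries, none of them past the adjusted threshold.

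The wider NRF2 programme was read from 6 further lists with 100 tested genes in all, and 0 of these passed the adjusted threshold or had an unadjusted limma p below 0.05 in the fit without the block. With the replicate number as a block, Chac1, Gstm2 and Me1 had unadjusted limma p-values of 0.0060, 0.038 and 0.046, and none of the 3 passed after adjustment (limma adjusted p = 0.724). Those 3 of 100 compare with 6.18% of all tested genes below 0.05 in the blocked fit. After median-ratio scaling 1 of the 100, Gstm2, was below 0.05. Of 17 tested genes of glutathione synthesis and use, 11 were above 0 with a median difference of +0.05, beside 74.5% and +0.09 over all tested genes. Median-ratio scaling brought that list median to -0.06. Gpx1, the main cytosolic glutathione peroxidase, was at 3030, 2225 and 2456 TPM in KO libraries, against 2811, 2246 and 1983 TPM in WT libraries. Gpx4, which reduces lipid hydroperoxides, was at 435, 352 and 251 TPM in KO libraries, against 379, 360 and 253 TPM in WT libraries. Both peroxidase genes overlapped between labels. Chac1, which degrades glutathione, was at 3.27, 2.89 and 7.06 TPM in KO libraries, against 1.98, 1.69 and 4.09 TPM in WT libraries, higher in the KO library of each number. The secreted peroxidase gene Gpx3 (+0.40), Gpx7 (+0.35) and the gamma-glutamylcyclotransferase gene Ggct (-0.19) completed the 4 with the smallest p.

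Of 18 tested thioredoxin and peroxiredoxin genes, 14 were above 0 with a median of +0.05, beside 74.5% and +0.09 over all tested genes. Median-ratio scaling brought the median of this list to -0.07. Prdx1, a peroxiredoxin that is itself an NRF2 target, was at 903, 812 and 801 TPM in KO libraries, against 921, 847 and 707 TPM in WT libraries, and Prdx6 was likewise overlapping. Txnip, the thioredoxin-binding inhibitor induced by glucose, was at 30.8, 37.8 and 35.3 TPM in KO libraries, against 23.0, 38.1 and 23.0 TPM in WT libraries. Txnrd2, Prdx4 and Txn1 had differences of +0.19, +0.14 and +0.16.

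Of 13 NADPH-supplying genes, 7 were above 0 and the median was 0.00. Rpe, encoding ribulose-phosphate epimerase, was at 16.4, 15.1 and 16.5 TPM in KO libraries, against 14.4, 13.4 and 15.1 TPM in WT libraries. All its KO values lay above all WT values by a small margin, as for 8.23% of all tested genes. Its unadjusted limma p was 0.23, and median-ratio scaling brought its difference from +0.15 to +0.04. Pgd, a dehydrogenase of the pentose phosphate pathway, was at 19.5, 22.5 and 11.03 TPM in KO libraries, against 19.6, 24.4 and 18.6 TPM in WT libraries, lowest in KO library 3. Idh1 and Taldo1, the most abundant of the list, had differences of -0.21 and -0.05, and H6pd and Pgls of +0.28 and +0.12.

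The list of phase 2 enzymes and transporters leaned the other way, with 21 of 31 tested genes below 0 and a median of -0.04, which median-ratio scaling brought to -0.15. All tested genes had medians of +0.09 and -0.0016 on the same scales. Gstm2, a mu-class glutathione transferase, was at 42.0, 36.4 and 29.2 TPM in KO libraries, against 42.6, 54.0 and 41.4 TPM in WT libraries, a difference of -0.36 with a standard error of 0.17. KO library 1 lay within the WT range. Gsta2, an alpha-class transferase, was at 31.9, 12.3 and 4.97 TPM in KO libraries, against 18.0, 31.0 and 13.5 TPM in WT libraries. Gstm1 and Gstm3 had differences of -0.23 and -0.24. Mgst1, the microsomal transferase and the most abundant of the list, was at 6089, 5050 and 4291 TPM in KO libraries, against 6391, 5373 and 4899 TPM in WT libraries. Gstp1, the pi-class transferase, was at 1619, 1384 and 3340 TPM in KO libraries, against 1981, 1137 and 3485 TPM in WT libraries, and thus highest in the library numbered 3 of each label. Close paralogs among the transferases may share reads, so values of single members are uncertain.

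Of 11 genes of iron and haem handling, 9 were above 0 with a median of +0.12, and of 10 enzymes of superoxide and hydrogen peroxide metabolism 9 were above 0 with a median of +0.08, both near the all-gene median. Ftl1, the ferritin light chain, was at 3976, 2801 and 2028 TPM in KO libraries, against 3159, 3415 and 2437 TPM in WT libraries. Alas1, the first enzyme of haem synthesis, was at 864, 854 and 678 TPM in KO libraries, against 575, 891 and 514 TPM in WT libraries. Blvra, which reduces the biliverdin made by HMOX1, had a difference of +0.23, and the haem carrier gene Hpx, the iron exporter gene Slc40a1 and the ferrochelatase gene Fech had +0.10, +0.20 and +0.12. Nox4, an enzyme that produces hydrogen peroxide, was at 22.6, 24.1 and 25.8 TPM in KO libraries, against 23.5, 16.4 and 17.5 TPM in WT libraries. Catalase (Cat) and Sod1 differed by +0.03 and +0.01, Sod3 by +0.17, and the NADPH oxidase subunits Cyba and Cybb by +0.18 and +0.11.

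**Figure D5:**
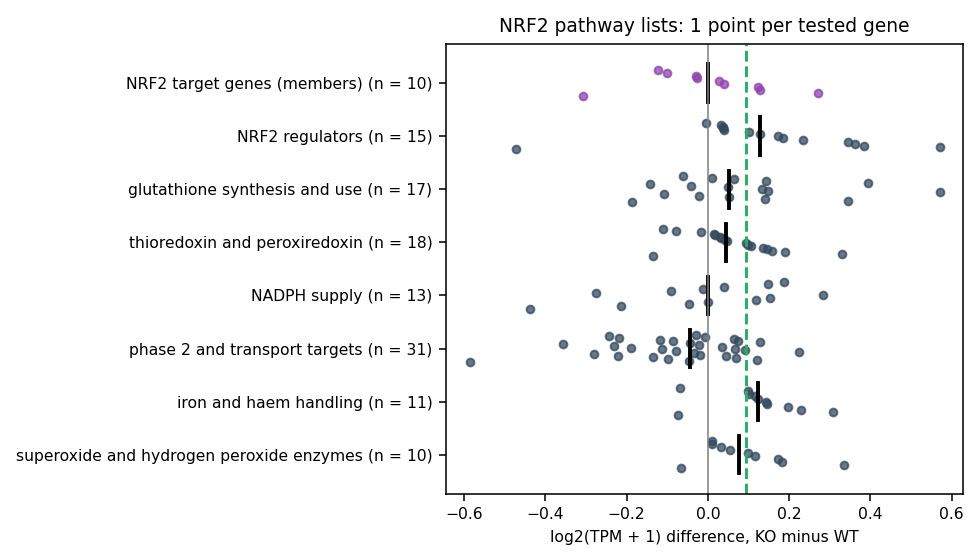
Difference between libraries labelled KO and WT on the log2(TPM + 1) scale for every tested gene of the 10 NRF2 targets (purple) and of 7 related lists (grey), with the list median as a black bar and the median of all tested genes (+0.09) as a dashed line. No point passed the adjusted threshold, and the list of phase 2 enzymes and transporters has the lowest median, at -0.04.

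Markers of zonation and of other cells were set beside these values. Pericentral hepatocyte markers, the zone where many detoxifying enzymes are concentrated, had 11 of 12 tested genes below 0 with a median of -0.20, and 4 (Glul, Oat, Slc1a2 and Lgr5) with all KO values below all WT values, where 0.857% of all tested genes were so. At an unadjusted limma p below 0.05 there were 2 of 12 lower (Oat and Slc1a2), where 0.385% of all tested genes were, and 5 of 12 after median-ratio scaling, where 1.26% were. Their summed TPM ran from 6157 to 7294 in KO libraries and from 5535 to 7814 in WT libraries. Periportal markers had 7 of 10 above 0 with a median of +0.13 and sums of 5235 to 6576 in KO libraries and 5055 to 6873 in WT libraries. Their differences ran from -0.62 to +0.53. At an unadjusted limma p below 0.05 there were 0 of 10 as deposited. The fit that blocked on library number had 4 of 10, in either direction, where 6.18% of all tested genes were. Recruited macrophage markers summed to 73.0 to 78.7 TPM in KO libraries and 53.5 to 74.4 in WT libraries, with 4 of 9 tested. Of these 4, 3 were above 0 and 1 was below 0 with all KO values below all WT values. After median-ratio scaling 1 of the 4 was lower in KO at an unadjusted limma p below 0.05, where 1.26% of all tested genes were. Endothelial markers summed to 132 to 164 TPM in KO libraries and 131 to 147 in WT libraries. Stellate cell markers summed to 144.8 to 168.6 TPM in KO libraries and 121.5 to 144.6 in WT libraries, so that all KO sums lay above all WT sums, the nearest by little. All 9 tested stellate markers were above 0, and 3 (Col1a2, Col3a1 and Acta2) had groups that did not overlap and an unadjusted limma p below 0.05, where 8.23% and 2.76% of all tested genes were higher by these measures. After median-ratio scaling 0 of 9 had such a p. Single markers of other cells with such a p as deposited were Lyve1 (endothelial) and Spp1, both higher in KO. Cholangiocyte markers summed to 38.8 to 62.4 TPM in KO libraries and 29.1 to 40.2 in WT libraries, and most of that was Spp1. Neutrophil markers summed to 5.97 to 7.02 TPM in KO libraries and 2.19 to 10.7 in WT libraries, and lymphocyte markers to 3.86 to 7.89 and 3.29 to 7.96. Erythroid markers, mostly globins, summed to 798 to 1830 TPM in KO libraries and 634 to 1048 in WT libraries, highest in KO library 2. Mitochondrially encoded genes summed to 160381 to 217272 TPM in KO libraries, lowest in KO library 3, and to 185749 to 242977 in WT libraries. The part of any of these in the NRF2 target values was not tested.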

How the data were processed

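Per the labels' protocols, liver RNA came from a TRIzol extraction followed by NEB library preparation. A single file of TPM values, covering 6 libraries, was deposited by the authors. Per the submitters' processing notes, the tools were HISAT2, fastp, featureCounts, limma and DESeq2, and the build was mm10. Versions and roles are not given in the sources used here, nor are counting mode and strand. TPM keeps no depth, so no count model was used and no counting interval is given. Symbols and coordinates came from GENCODE M21 (mm10), and 51492 of 54600 rows matched a symbol. Where a symbol had several rows, that with the highest mean was used.

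The tested set was the 11440 genes that reached 1 TPM in 3 or more libraries. Two-sided p-values came from limma 3.58.1 (R 4.3.3), fitted to log2(TPM + 1) with its trend option, and Benjamini-Hochberg adjustment covered the whole set. The step was also run on simulated libraries that were drawn independently, so that run did not cover the likeness of libraries with the same number. Similar transcripts were found with BLAST 2.17.0. The named genes were Epas1, the 10 targets, Nfe2l2, Keap1 and regulators with p below 0.05, the 4 smallest p and 2 highest levels of each further list, and the closest profiles. Other genes, such as Cul3, Sqstm1 and the marker genes, were picked with their values already known. The members and lists were chosen with earlier results of these data known. The values of 1 of the 10 targets are not reported here. The alternatives are given in the closing section.

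Each library was used as 1 replicate. No pair shared more than 0.0561% of values above 1 TPM, and Spearman correlations lay between 0.919 and 0.940. These values show no copied library, but cannot tell separate animals from technical repeats. Over all tested genes, deviations from the group mean correlated at 0.16, 0.41 and 0.38 between libraries of the same number, and at -0.37 to 0.03 otherwise. Such deviations cancel within each label, so the lower values otherwise follow from the higher ones and are not separate evidence. They were taken before any scaling. The numbers may pair the libraries, but this was not tested. The main limma fit and the permutation test did not use the number, and a fit with the replicate block was an alternative.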

Additional observations from a re-analysis of the deposited data

How the results depend on the processing

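None of the 10 targets passed the adjusted threshold under any of 22 alternatives, and the smallest limma adjusted p was 0.724. The sign was less settled: of 218 values of single targets, 32 had the other sign, and only Ugdh never did. With median-ratio scaling, quantile normalization and TPM rescaled after removal of mitochondrial and very abundant genes, Gclm was at -0.071, -0.027 and -0.027 and Txnrd1 at -0.082, -0.061 and -0.038. The replicate block with median-ratio scaling also gave -0.071 and -0.082, and the replicate block changed no call of a target. Without both libraries numbered 1, Srxn1 was at -0.0025. Without both numbered 2, Gclc was at 0.11 and Hmox1 at 0.14. Without both numbered 3, Nqo1 was at 0.10, Txnrd1 at -0.0088, Osgin1 at -0.039 and the target not reported by name at -0.12. Leaving out 1 library at a time gave ranges of -0.45 to 0.35 for Nqo1, -0.20 to 0.15 for Gclc, -0.12 to 0.21 for Gclm, -0.27 to 0.10 for Hmox1, -0.061 to 0.34 for Srxn1, -0.059 to 0.080 for Txnrd1, -0.13 to 0.27 for the target not reported by name, -0.49 to 0.19 for Ephx1, 0.060 to 0.49 for Osgin1 and -0.55 to -0.017 for Ugdh, and -0.13 to 0.16 for the median of the 10. Where an arm kept 2 libraries the fit pooled the spread.

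Over all genes, the 1 gene lower in KO became 0 with a pseudocount of 5, no filter, a filter of 5 TPM, quantile normalization, the replicate block with or without median-ratio scaling, and without both libraries numbered 1 or 3. The count higher in KO, 0 as reported, was 1 without both numbered 2. With 1 library left out, 0 to 2 genes were higher and 0 to 1 lower. The median share of variation with library number, a measure chosen after seeing the data, was 46.2% with median-ratio scaling and 47.9% with quantile normalization. Nqo1 and the target not reported by name did not pass the filter of 5 TPM. The causes were not tested. Depth is unknown, and 3 libraries a group limit what can be detected.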
